A study of Homo sapiens with 14 samples.

Results

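Of 43 human genes listed for the lysosome, for the vacuolar ATPase (V-ATPase) that acidifies it and for the MiT/TFE transcription factors TFEB, TFE3 and MITF, 42 were measured among the 19775 genes of the arrays. The genes were picked by name from what their products are known to do, but with earlier results of these data known. The 42 measured genes fall into 3 transcription factors, 7 proteins of the lysosomal membrane, 21 lumenal hydrolases and their cofactors, and 11 subunits of the V-ATPase. GLB1 was the gene not analysed here. The data are 14 HG-U133 Plus 2.0 arrays of 7 established lines of T-cell acute lymphoblastic leukemia (T-ALL), namely Jurkat, TALL-1, HPB-ALL, CCRF-CEM, ALL-SIL, Molt-4 and P12-ICHIKAWA. Each line had 1 array of cells given AS605240, a small molecule inhibitor of phosphoinositide 3-kinase (PI3K), and 1 array of cells given vehicle, both for 6 h. The concentration was the IC50 of that line, so the lines did not all receive the same dose. The labels name no genetic change in any group, and all cells grew in the same kind of medium with serum.

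Lysosomes break down proteins, glycans and lipids with acid hydrolases, and the V-ATPase pumps protons inward to keep them acid. TFEB, TFE3 and MITF bind E-box elements near many lysosomal genes. While the kinase complex mTORC1 is active at the lysosome it phosphorylates these factors and keeps them in the cytoplasm, and PI3K signaling lies upstream of mTORC1. The comparison asks which of these transcripts changed when PI3K was inhibited.

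Signals were analysed as log2(signal + 16), with the probe set of highest mean level taken for each gene, and all levels below are on this scale. A change is the level with AS605240 minus the level with vehicle in the same line. With 16 added, the fold change of a dim gene comes out too small. All adjusted p-values come from limma, with each line as its own block, adjusted by the Benjamini-Hochberg method over the 19775 genes, and a gene was called higher or lower at an adjusted p under 0.05. The error is the spread of the changes between the 7 lines, not of their levels, and holds the noise of single arrays. The T-cell markers CD3D, CD3E, CD3G, CD5, CD7 and LCK had a signal over 50 in 14 of 14 arrays and CD2 in 8, whereas the B-cell genes MS4A1, CD22 and PAX5 and the myeloid genes CD14, CSF1R, ITGAM, MPO and FCGR1A had it in none. CD79A passed this level in 12 arrays, CD79B in 5 and LYZ in 14. With vehicle, P12-ICHIKAWA and TALL-1 were nearly alike (r = 0.994 over all genes, where the other 20 pairs lay between 0.908 and 0.953), and over the 42 members their median absolute difference was 0.149, against 0.192 to 0.466. For the members and the named genes of a second list, the calls lost with these lines counted as 1 are therefore also given. Per-array medians were higher with AS605240 by 0.053 ± 0.039 (SD, n = 7), and the part of this shift in the changes below was not tested beyond the centred setting given with them. In such bulk RNA, fewer cells with a transcript and less of it per cell cannot be told apart.

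With AS605240 the transcripts of 10 of the 21 hydrolases and cofactors, 4 of the 7 membrane proteins and TFE3 were higher, while 9 of the 11 V-ATPase subunits did not pass the test. Of the 42 genes, 16 were higher (38.1%) and 2 were lower (4.76%), and 24 were not called. Over all genes tested, 11.8% were higher and 7.03% lower. Among the 33 members whose signal passed 50 on at least 7 arrays, 14 were higher and 2 lower (42.4% and 6.06%), against 20.3% and 13.6% of the 9186 genes as bright as that. The median change of the 42 genes was 0.15, against 0.013 over all genes, and was 0.097 once every array was centred on its median. The change was above 0 in 7 of 7 lines for 14 members and below 0 in 7 of 7 for 2, against 10.0% and 6.11% of all genes. A fold change over 1.5 with an adjusted p under 0.05 was reached upward by TFE3, MCOLN1 and TPP1 and downward by no member, against 1.07% and 0.506% of all genes. The count of higher members rests in part on TALL-1 and in part on the processing. Without TALL-1 it was 11, and with P12-ICHIKAWA and TALL-1 counted as 1 line it was 12, each with 2 lower. It was also 12 with an offset of 4 in place of 16 (2 lower) and with each array centred on its median (4 lower). With P12-ICHIKAWA and TALL-1 as 1 line, the calls of CTSD, CTSS, NPC2 and ATP6V1H were lost (adjusted p from 0.0611 to 0.0739 in limma). Ranges over the 7 vehicle arrays and over the 7 treated arrays overlapped for every one of the 42 genes (they did not overlap for 0.298% of all genes), and for all 42 the range of the line means was wider than the change.

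**Figure D1:**
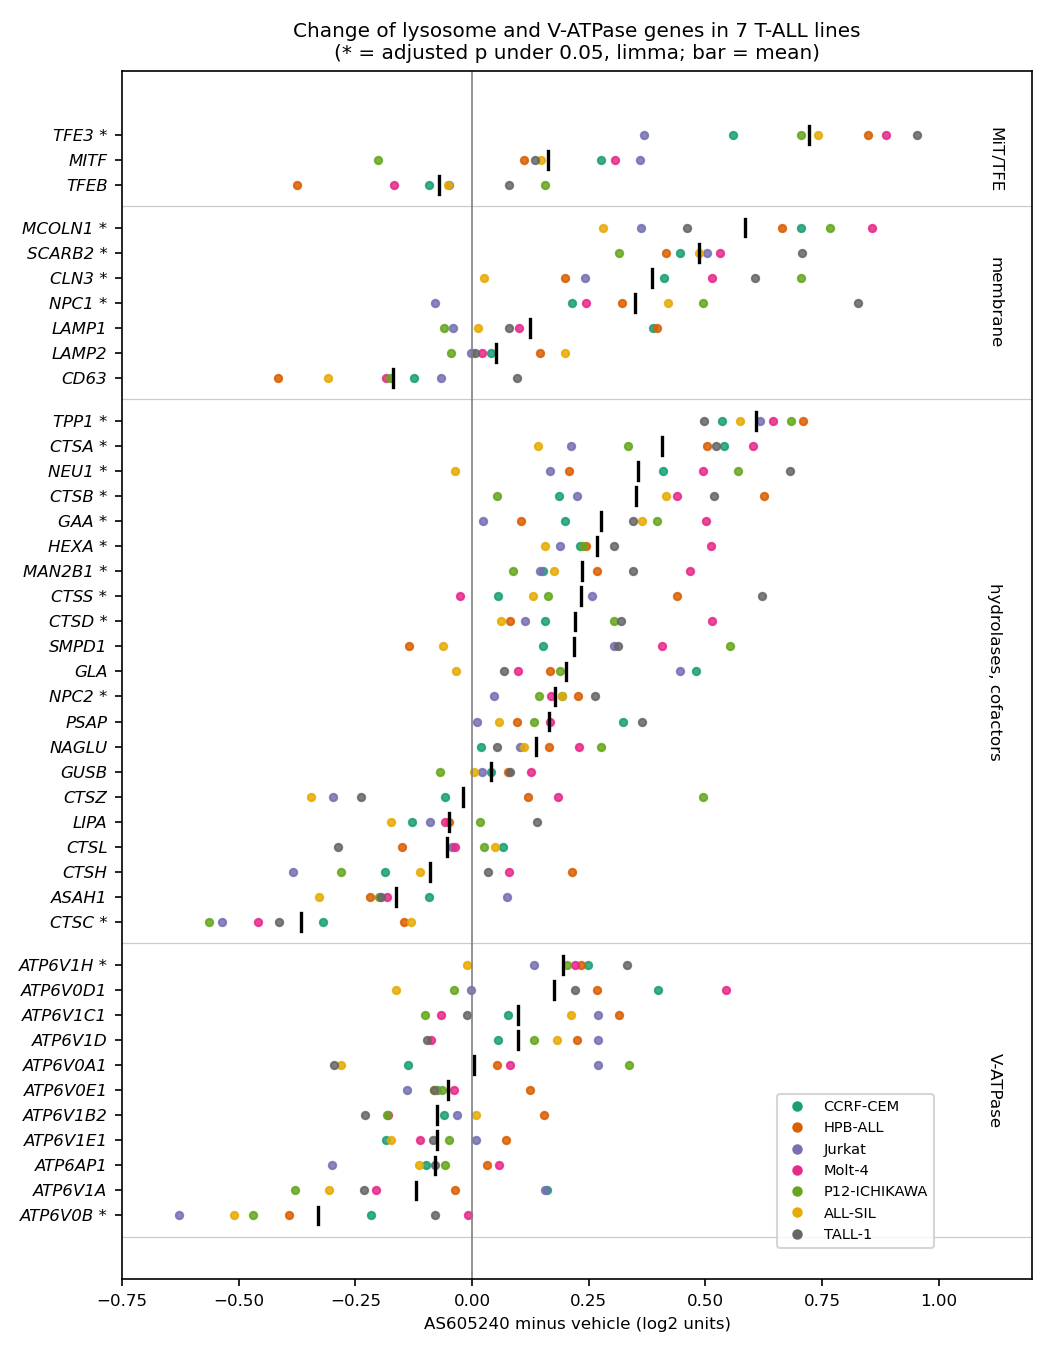
Change (AS605240 minus vehicle, log2 units, horizontal axis) of each of the 42 genes in each of the 7 lines (coloured points), with the mean over lines as a black bar and an asterisk for an adjusted p under 0.05 in limma. TFE3, MCOLN1, SCARB2 and TPP1 lie above 0 in 7 of 7 lines, CTSC and ATP6V0B lie below 0 in 7 of 7 lines, and the V-ATPase genes gather around 0.

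To show the letters that MiT/TFE factors are known to read, the promoter windows of RefSeq (build GRCh38.p14, from 250 bases before to 50 after each gene start) were searched for the E-box CACGTG and for its longer forms TCACGTGA and GTCACGTGAC. Each of the 3 is its own reverse complement, so that a match stands on both strands, and each longer form holds the shorter ones. Windows were matched for 30 of the 42 genes. The E-box was present for 10 of these (33.3%), against 10.9% of the 15384 measured genes with a window and 8.77% of all 27305 genes with one. TCACGTGA was present for 6 (20.0%), against 1.66% and 1.18%, and GTCACGTGAC for GAA and MCOLN1 (6.67%), against 0.650% and 0.421%. The stretches below lie before the gene starts, are written 5′ to 3′ on the strand of the gene, and have each match that lies wholly before the start in capitals. A further TCACGTGA of LAMP1, with its first base at -2, spans the start and is cut off unmarked at the end of its stretch. They were chosen to set 4 genes that were higher (MCOLN1, GAA, CTSA and CTSD) beside 1 that was lower (ATP6V0B) and 2 that were not called (ATP6V0D1 and LAMP1).
MCOLN1, chr19:7522557-7522623, plus strand: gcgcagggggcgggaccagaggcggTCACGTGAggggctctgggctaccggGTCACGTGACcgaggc
GAA, chr17:80101478-80101580, plus strand: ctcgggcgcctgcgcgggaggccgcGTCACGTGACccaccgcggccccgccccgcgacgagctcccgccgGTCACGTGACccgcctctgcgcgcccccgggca
CTSA, chr20:45891268-45891334, plus strand: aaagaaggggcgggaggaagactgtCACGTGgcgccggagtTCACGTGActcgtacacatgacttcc
CTSD, chr11:1763944-1763999, minus strand: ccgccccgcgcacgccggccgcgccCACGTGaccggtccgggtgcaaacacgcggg
ATP6V0B, chr1:43974878-43974951, plus strand: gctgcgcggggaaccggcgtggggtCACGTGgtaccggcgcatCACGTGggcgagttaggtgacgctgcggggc
ATP6V0D1, chr16:67481185-67481242, minus strand: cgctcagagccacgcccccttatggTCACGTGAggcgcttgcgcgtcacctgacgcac
LAMP1, chr13:113297022-113297238, plus strand: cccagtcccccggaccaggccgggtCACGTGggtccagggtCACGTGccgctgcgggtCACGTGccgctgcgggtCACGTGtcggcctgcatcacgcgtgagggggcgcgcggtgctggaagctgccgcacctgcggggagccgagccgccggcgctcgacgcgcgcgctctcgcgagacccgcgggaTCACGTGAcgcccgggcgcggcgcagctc

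Members with and without these letters were found on each side of the test. The E-box was in the window of 6 of the 12 higher members that had one, of 1 of the 2 lower members (ATP6V0B) and of 3 of the 16 that were not called (ATP6V0D1, LAMP1 and CD63). The windows of TFE3 and TPP1, whose changes were among the largest, held no match. By class the E-box was present for 4 of 6 membrane genes, 4 of 15 hydrolase and cofactor genes, 2 of 6 V-ATPase genes and none of the 3 transcription factors. In a second list of lysosomal genes, described below, 11 of the 43 genes with a window held the E-box (25.6%). GTCACGTGAC was present for 4 of the 43 (9.30%), so that neither form is particular to the members. In that list the E-box was in the window of 3 of 11 higher genes, 0 of 2 lower genes and 8 of 30 that were not called. These counts describe letters in a window, not binding, and do not tell which factor, if any, reads them.

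**Figure D2:**
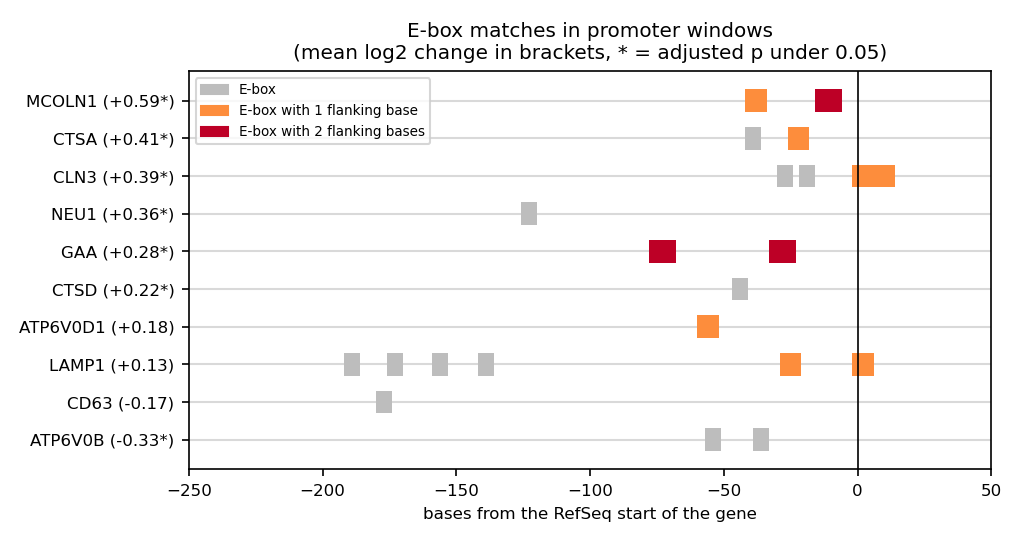
Position of each E-box (grey), of the form with 1 flanking base (orange) and of the form with 2 flanking bases (red) in the promoter windows of the 10 genes that held one, in bases from the gene start (0), with the mean log2 change in brackets and an asterisk for an adjusted p under 0.05. The matches of MCOLN1, CTSA, GAA, CTSD, ATP6V0D1 and ATP6V0B all lie within 100 bases before the start, those of LAMP1 also farther away, and ATP6V0B, whose transcript was lower, holds 2. Where a gene has several windows, matches are drawn from each of its starts, so that the same match of CLN3 may appear more than once.

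Among the MiT/TFE factors only TFE3 passed the test. The level of TFE3 (probe set 212457_at) ran from 7.08 to 8.30 with vehicle (median 7.58) and from 7.90 to 9.14 with AS605240 (median 8.35). It was higher with AS605240 in every line, least in Jurkat (0.37) and CCRF-CEM (0.56) and most in Molt-4 (0.89) and TALL-1 (0.95). The mean change was 0.72 (SE 0.073, a fold change of 1.65, adjusted p = 3.27e-05 in limma), the largest of the 42 genes when each is read on its brightest probe set. The other probe sets of TFE3 gave 0.60 (206649_s_at, above 0 in 7 of 7 lines), 0.24 (1565347_s_at) and -0.056 (1567704_at), and the latter pair had no signal over 50. With the mean of all its probe sets TFE3 changed by 0.38 (adjusted p = 0.000447 in limma), less than MCOLN1, TPP1 and CTSA under the same setting (0.59, 0.46 and 0.41).

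TFEB, the factor best known for lysosomal gene control, ran from 5.83 to 6.53 with vehicle (median 6.02) and from 5.66 to 6.37 with AS605240 (median 5.98). Its change was -0.071 (95% CI -0.22 to 0.073, adjusted p = 0.551 in limma), with values from -0.38 in HPB-ALL to 0.16 in P12-ICHIKAWA, above 0 in 2 of 7 lines. This interval ends well below the change of TFE3. MITF, which in other tissues governs melanocytes and osteoclasts, had a signal of at most 21.2 on any array. Its level was 4.26 to 5.22 with vehicle and 4.53 to 5.03 with AS605240, with a change of 0.16 (95% CI 0.013 to 0.31, adjusted p = 0.131 in limma). The MITF change was above 0 in 6 of 7 lines, and without P12-ICHIKAWA, where it was -0.20, the adjusted p was 0.0299.

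**Figure D3:**
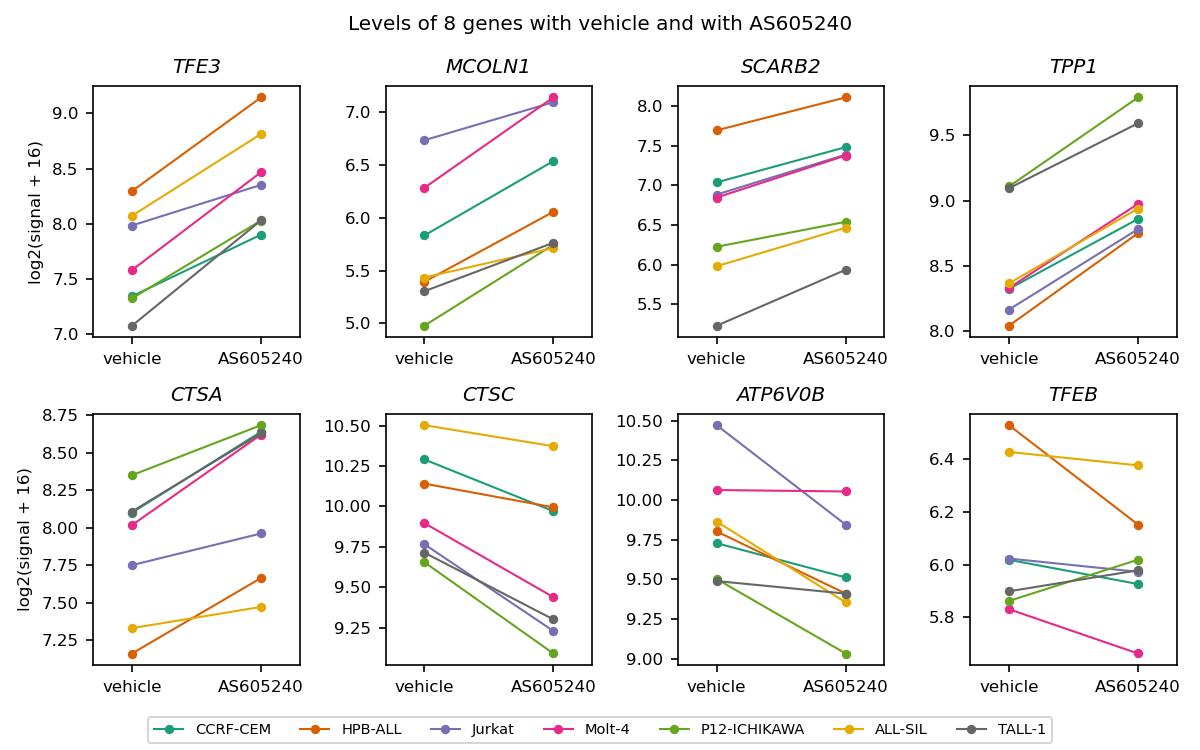
Level (log2(signal + 16), vertical axis, scaled for each gene) with vehicle and with AS605240 of 8 genes, with 1 coloured line per cell line. All 7 lines rise for TFE3, MCOLN1, SCARB2, TPP1 and CTSA, all 7 fall for CTSC and ATP6V0B, and those of TFEB cross.

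Of the 7 membrane genes 4 were higher and none lower, with a median change of 0.35. MCOLN1, the channel that releases calcium from lysosomes, ran from 4.98 to 6.74 with vehicle (median 5.43) and from 5.71 to 7.14 with AS605240 (median 6.06). Its change was lowest in ALL-SIL (0.28) and Jurkat (0.36) and highest in P12-ICHIKAWA (0.77) and Molt-4 (0.86). The mean was 0.59 (SE 0.075, just past a fold change of 1.5, adjusted p = 0.000157 in limma), although its signal passed 50 in only 6 arrays. With an offset of 64 in place of 16 it was 0.33 (adjusted p = 0.00179 in limma). MCOLN1 carries both TCACGTGA and GTCACGTGAC in the stretch printed above.

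SCARB2, the receptor that brings glucocerebrosidase to lysosomes, ran from 5.23 to 7.70 with vehicle (median 6.85) and from 5.93 to 8.11 with AS605240 (median 7.38). HPB-ALL was highest and TALL-1 lowest under each treatment. Its change was 0.49 (SE 0.060, adjusted p = 0.000106 in limma), from 0.32 in P12-ICHIKAWA to 0.71 in TALL-1, and was 0.23 with the mean of all its probe sets (adjusted p = 0.00455 in limma). CLN3, a membrane protein lost in juvenile Batten disease, changed by 0.39 (SE 0.080, adjusted p = 0.00373 in limma), with 0.026 in ALL-SIL and 0.70 in P12-ICHIKAWA at the ends. Its level ran from 6.84 to 7.63 with vehicle and from 7.36 to 7.83 with AS605240. NPC1, which exports cholesterol from lysosomes, varied most from line to line among these 4. Its level was 6.66 to 7.83 with vehicle and 6.90 to 7.84 with AS605240, and its change was 0.35 (SE 0.087, adjusted p = 0.0120 in limma), from -0.079 in Jurkat to 0.83 in TALL-1. With the mean of all its probe sets NPC1 changed by 0.14 and was no longer called (adjusted p = 0.145 in limma).

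The abundant membrane glycoproteins LAMP1 and LAMP2 and the tetraspanin CD63 were not called. LAMP1 changed by 0.13 (95% CI -0.026 to 0.28) and LAMP2 by 0.052 (95% CI -0.068 to 0.17), with adjusted p-values of 0.268 and 0.611 in limma. LAMP1 was at 0.39 in CCRF-CEM and 0.40 in HPB-ALL, but between -0.060 and 0.10 in the other 5 lines. For LAMP2 the probe sets disagreed: the brightest (200821_at) gave 0.052, whereas 203042_at gave -0.31 and 203041_s_at -0.37, the latter below 0 in 7 of 7 lines. CD63, which lysosomes share with exosomes, had the largest decrease of the class at -0.17 (95% CI -0.31 to -0.026, adjusted p = 0.0970 in limma) and was below 0 in 6 of 7 lines. CD63 passed the threshold with each array centred on its median (-0.22, adjusted p = 0.0320 in limma).

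Of the 21 hydrolases and cofactors 10 were higher and 1 lower (47.6% and 4.76%), with a median change of 0.20. Without TALL-1 the number higher was 6, and with an offset of 4 or with each array centred on its median it was 7. TPP1, a lysosomal tripeptidyl peptidase, had the largest increase of the class. Its level ran from 8.04 to 9.11 with vehicle (median 8.33) and from 8.75 to 9.79 with AS605240 (median 8.94), with P12-ICHIKAWA and TALL-1 highest under each treatment. The change was 0.61 (SE 0.055, fold change 1.53, adjusted p = 1.72e-05 in limma), and the 7 lines lay between 0.50 in TALL-1 and 0.71 in HPB-ALL. The SD between lines was 0.077.

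Of the proteases, CTSA, which also protects neuraminidase and beta-galactosidase, ran from 7.16 to 8.35 with vehicle (median 8.02) and from 7.47 to 8.68 with AS605240 (median 8.62). Its change was 0.41 (SE 0.068, adjusted p = 0.000950 in limma), least in ALL-SIL (0.14) and most in Molt-4 (0.60). CTSB, a cysteine protease, was far lower in P12-ICHIKAWA and TALL-1 (6.12 in each with vehicle) than in the other 5 lines (8.03 to 8.35). It changed by 0.35 (SE 0.073, adjusted p = 0.00370 in limma), from 0.053 in P12-ICHIKAWA to 0.63 in HPB-ALL, so that the pair of lines that were most alike in level lay at 0.053 and 0.52 in change. CTSD, the main aspartic protease of lysosomes, changed by 0.22 (SE 0.066, adjusted p = 0.0308 in limma), with 0.51 in Molt-4 and at most 0.32 in the other lines. The CTSD call was lost when Molt-4, P12-ICHIKAWA or TALL-1 was left out (adjusted p up to 0.0887). CTSS, a protease of antigen presentation, changed by 0.23 (SE 0.077, adjusted p = 0.0479 in limma), had a signal over 50 in only 4 arrays, and lost its call without any of HPB-ALL, Jurkat, P12-ICHIKAWA, ALL-SIL or TALL-1 (adjusted p up to 0.147). CTSS was called under none of the 8 other settings that kept the block, listed with the processing. In 7 of these its adjusted p lay between 0.0597 and 0.120 in limma, and the signal filter removed it.

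CTSC, which activates the serine proteases of cytotoxic granules, was the hydrolase that fell. Its level ran from 9.66 to 10.50 with vehicle (median 9.90) and from 9.09 to 10.37 with AS605240 (median 9.44). The decrease was small in ALL-SIL (-0.13) and HPB-ALL (-0.15) and largest in Jurkat (-0.54) and P12-ICHIKAWA (-0.56), with a mean of -0.37 (SE 0.068, adjusted p = 0.00181 in limma). Its probe sets did not all move alike. The bright sets 201487_at and 225647_s_at, gave -0.37 and -0.30, 225646_at gave -0.084, and 231234_at gave 0.58 with 7 of 7 lines above 0. With the mean of all its probe sets CTSC changed by -0.044 and was not called (adjusted p = 0.662 in limma).

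Of the 7 glycosidases 4 were higher, and the change of all 7 was above 0 in 5 of the 7 lines. NEU1, the lysosomal sialidase, ran from 6.48 to 7.15 with vehicle and from 6.69 to 7.72 with AS605240, with a change of 0.36 (SE 0.082, adjusted p = 0.00742 in limma), from -0.037 in ALL-SIL to 0.68 in TALL-1. GAA, which degrades glycogen and carries GTCACGTGAC at 2 places, ran from 5.77 to 6.43 and from 5.99 to 6.90, with a change of 0.28 (SE 0.067, adjusted p = 0.0102 in limma). HEXA, the alpha chain of beta-hexosaminidase, ran from 7.66 to 8.17 and from 8.12 to 8.32, so that the treated lines were closer together. Its change was 0.27 (SE 0.059, adjusted p = 0.00580 in limma), and Molt-4, at 0.51, stood above the other 6 lines (0.16 to 0.30). MAN2B1, the lysosomal alpha-mannosidase, changed by 0.23 (SE 0.061, adjusted p = 0.0155 in limma), and without TALL-1 its adjusted p was 0.0503. GLA changed by 0.20 (95% CI 0.050 to 0.35, adjusted p = 0.0627 in limma), NAGLU by 0.14 (95% CI 0.016 to 0.26) and GUSB by 0.041 (95% CI -0.075 to 0.16), and none of the 3 was called, though GLA was without ALL-SIL (adjusted p = 0.0422 in limma).

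None of the 3 lipid hydrolases was called. Acid ceramidase (ASAH1) changed by -0.16 (95% CI -0.29 to -0.033, adjusted p = 0.0786 in limma), with 6 of 7 lines below 0, and without Jurkat, where it was above 0, its adjusted p was 0.0408. ASAH1 was also called lower in 4 of 8 other settings (adjusted p down to 0.0283 in limma). These were an offset of 64, centring, the mean of all probe sets and the signal filter. Its probe set 213902_at gave -0.35, with no line above 0. Acid lipase (LIPA) changed by -0.049 (95% CI -0.17 to 0.075). Acid sphingomyelinase (SMPD1), with no signal over 50, changed by 0.22 (95% CI 0.045 to 0.39, adjusted p = 0.0784 in limma), and was called without HPB-ALL or ALL-SIL (adjusted p down to 0.0285). Of the cofactors, NPC2, which hands cholesterol to NPC1, ran from 8.45 to 9.35 with vehicle and from 8.68 to 9.54 with AS605240, with a change of 0.18 (SE 0.054, adjusted p = 0.0351 in limma), above 0 in 7 of 7 lines. The NPC2 call was lost without any line but Jurkat (adjusted p up to 0.0979). PSAP, the precursor of the saposins, changed by 0.16 (95% CI 0.033 to 0.30, adjusted p = 0.0796 in limma) and was above 0 in 7 of 7 lines. The remaining cathepsins, CTSH, CTSL and CTSZ, lay between -0.091 and -0.020 and were not called, and neither CTSL nor CTSZ reached a signal of 50 on any array.

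Of the 11 V-ATPase genes 1 was higher and 1 was lower (9.09% each, against 11.8% and 7.03% of all genes), and the median change was -0.051. ATP6V0B, a subunit of the proton-conducting V0 ring, ran from 9.49 to 10.47 with vehicle (median 9.80) and from 9.03 to 10.05 with AS605240 (median 9.41). Its change was -0.33 (SE 0.078, adjusted p = 0.00865 in limma), from -0.63 in Jurkat and -0.51 in ALL-SIL to -0.079 in TALL-1 and -0.0092 in Molt-4. ATP6V1H, a regulatory subunit of the V1 sector that holds the ATPase sites, ran from 7.99 to 8.89 with vehicle and from 8.20 to 9.04 with AS605240. It changed by 0.19 (SE 0.058, adjusted p = 0.0309 in limma), above 0 in 6 of 7 lines, but the call was lost without any line except ALL-SIL (adjusted p up to 0.0952) and with the mean of all its probe sets (0.083, adjusted p = 0.283). Read on the brightest probe set, the changes of the 9 subunits that were not called lay between -0.12 (ATP6V1A) and 0.18 (ATP6V0D1). Their 95% confidence intervals lay within -0.28 and 0.35. A change of the size of TFE3 or TPP1 is thus outside the interval of each of the 9. ATP6V0D1, with TCACGTGA in its window, was the most uneven of them, from -0.16 in ALL-SIL to 0.54 in Molt-4. ATP6V1C1 depended on the probe set. Its brightest (202874_s_at) gave 0.10, 202872_at and 202873_at gave 0.14 each, and 226463_at gave 0.28, with every line above 0. Once its probe sets were averaged, ATP6V1C1 changed by 0.17 and was called higher (adjusted p = 0.0404 in limma).

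The classes were also set side by side within each line. The median change of the hydrolases and cofactors was above that of the V-ATPase subunits in 7 of 7 lines and above that of all genes in 7 of 7, and ran from 0.059 in ALL-SIL to 0.30 in TALL-1. The median of the membrane genes was above that of the V-ATPase subunits in 6 of 7 lines. The exception was Jurkat, where the membrane median was -0.0027 and the V-ATPase median 0.0077. The V-ATPase median was below that of all genes in 5 of 7 lines and highest in HPB-ALL (0.13), where 9 of its 11 genes were above 0, against 2 of 11 in TALL-1. Over the 42 genes, 24 (ALL-SIL) to 33 (HPB-ALL) were above 0 in a line, which is 57.1% to 78.6%, against 50.3% to 57.1% of all genes. ALL-SIL had the lowest median of the 42 genes, at 0.020. These medians are descriptions, and no test of the difference between classes was made.

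**Figure D4:**
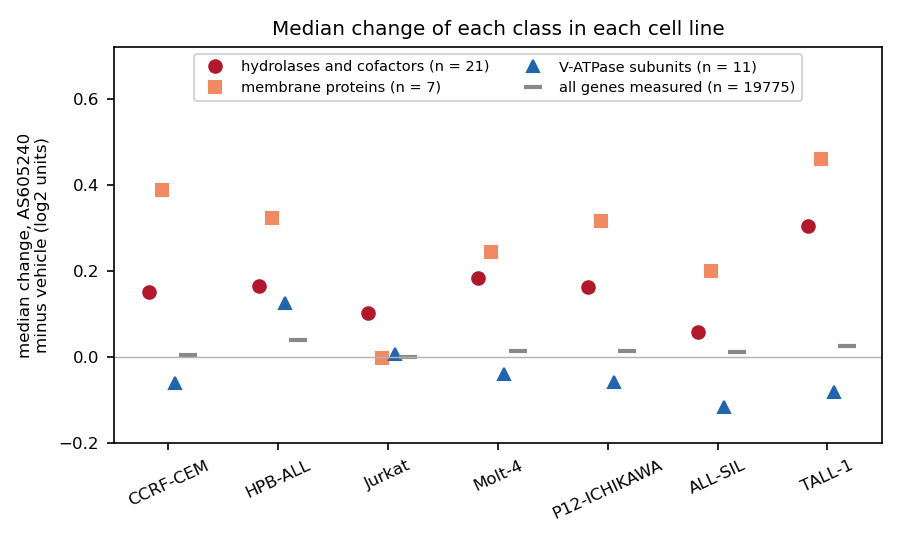
Median change (AS605240 minus vehicle, log2 units, vertical axis) of the hydrolases and cofactors (circles), membrane genes (squares), V-ATPase subunits (triangles) and all 19775 genes (dashes) in each line. Circles lie above triangles in 7 of 7 lines and squares do so in 6, with Jurkat as the exception.

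A second list held 54 measured genes of the same organelle (of 64 listed) and was set beside the members. Of these, 14 were higher and 5 lower (25.9% and 9.26%, against 11.8% and 7.03% of all genes), with a median change of 0.090. Among the 39 with a signal over 50 on at least 7 arrays, 12 were higher and 5 lower, against 20.3% and 13.6% of all genes as bright. The share of lower genes was thus near that of all genes. The 5 higher genes with the smallest p were ABCD4 and CTNS, at 0.61 each, IGF2R at 0.53, GRN at 0.50 and PLA2G15 at 0.29, all above 0 in 7 of 7 lines, with adjusted p-values from 1.50e-05 to 0.00206 in limma. ABCD4 moves vitamin B12 out of lysosomes, CTNS exports cystine, IGF2R carries newly made hydrolases to lysosomes, GRN is the granulin precursor and PLA2G15 is a phospholipase. The 7 vehicle levels of ABCD4 lay between 7.17 and 7.86 and its 7 treated levels between 7.88 and 8.49. The 5 lower genes were ATP6V0A2 at -0.47, RRAGD at -0.29, LGMN at -0.28, LAMTOR5 at -0.21 and LAPTM4B at -0.19, with adjusted p-values from 0.00232 to 0.0384 in limma. Their number was 2 without Jurkat or P12-ICHIKAWA, 3 without CCRF-CEM, Molt-4 or TALL-1 and 4 without HPB-ALL or ALL-SIL, and LGMN and ATP6V0A2 were called in each of these fits. With the probe sets of a gene averaged, 3 of the 5 were not called: ATP6V0A2 (-0.067, adjusted p = 0.398 in limma), RRAGD (-0.064, adjusted p = 0.635) and LAPTM4B (-0.15, adjusted p = 0.0710). The changes of ABCD4, CTNS and IGF2R were then 0.35, 0.37 and 0.33 and stayed called. ATP6V0A2 is a further V0 subunit, and LGMN is the asparaginyl protease legumain. RRAGD and LAMTOR5 belong to the Rag and Ragulator complexes that bring mTORC1 to the lysosome. Over all 17 measured V-ATPase genes of both lists, 1 was higher and 2 were lower, with a median of -0.013.

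Most of the 42 genes also differed between the lines. In the F test of limma for cell line, 38 of the 42 genes differed at an adjusted p under 0.05, against 66.9% of all genes. Among the bright genes the shares were 93.9% of the members and 93.0% of all, so that this is no property of the members. The widest range of line means was that of CTSH, an aminopeptidase, at 3.77: with vehicle it was at 8.66 in CCRF-CEM and 7.84 in ALL-SIL, but between 4.69 (HPB-ALL) and 5.88 (Molt-4) in the other 5 lines. ASAH1 was at 6.43 in ALL-SIL and between 8.61 and 9.31 elsewhere, with a range of 2.94. CTSS was at 6.98 in ALL-SIL and 6.61 in HPB-ALL, but between 4.52 and 5.08 elsewhere, with a range of 2.54. CTSB (2.42), SCARB2 (2.32) and CD63 (2.23) followed. SCARB2 and CD63 were highest in HPB-ALL, whereas CTSB was low in P12-ICHIKAWA and TALL-1 alone. For these 6 genes the adjusted p of the F test in limma was at most 1.35e-08.

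**Figure D5:**
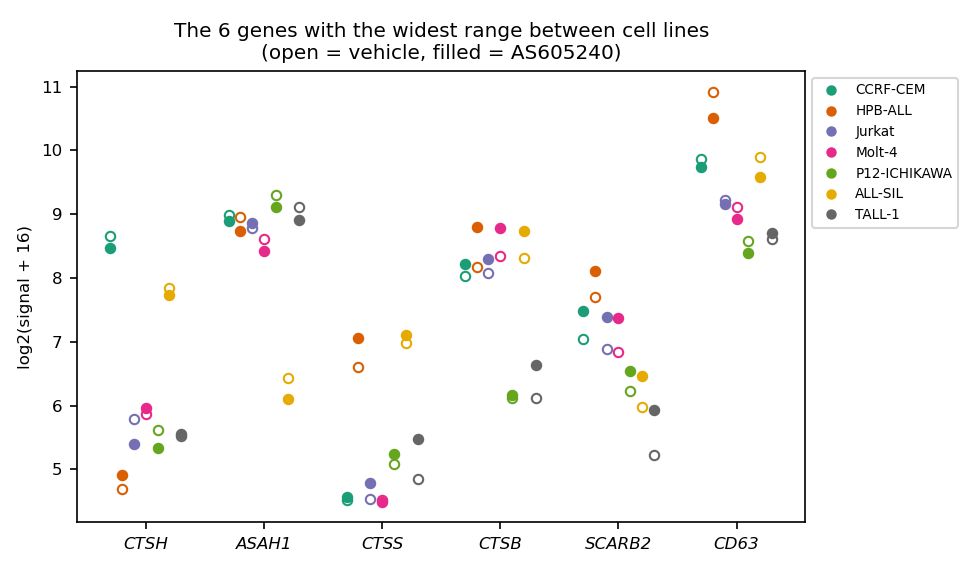
Level (log2(signal + 16), vertical axis) of the 6 members with the widest range of line means, in each line (coloured), with vehicle (open circles) and with AS605240 (filled circles). The 2 circles of a line lie close together beside the distance between lines, as for CTSH in CCRF-CEM and ALL-SIL and for ASAH1 in ALL-SIL.

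Several probe sets could be compared for part of the members. Of the 42 genes 26 had several single-gene probe sets, and 13 had several that passed a signal of 50 on at least 7 arrays. For 10 of these 13 the bright probe sets all changed with 1 sign, and the exceptions were CTSC, LAMP2 and ATP6V0E1.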

How the data were processed

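RNA of 7 T-ALL cell lines, each with AS605240 and with vehicle, was measured on 14 arrays. The authors deposited a linear signal intensity per probe set, made with iterPLIER by their methods, and the submitters' processing notes name PLIER and Affymetrix Expression Console 1.3.1.187. The between-array normalization was not given in the sources used here. As in the methods, 16 was added here and log2 taken. Of 54675 probe sets 41091 named a single gene, and the brightest stood for each of 19775 genes. Treatments were compared in R 4.3.3 with limma 3.58.1 (lmFit, eBayes; cell line as the block; Benjamini-Hochberg over all genes), and the fit was tested on simulated data. The pairing comes from the cell line labels, and paired arrays deviated together from the group means (correlations 0.877 to 0.946). Precision is limited by the number of arrays. Members and lists were chosen with earlier results of these data known. Named genes were every called member, the 3 transcription factors, the largest increase and decrease of each class, the 5 smallest p-values each way of the second list and the 6 widest ranges between lines; others were named after their values were seen. Alternatives were offsets of 4 and 64, quantile normalization, centring, the mean of all probe sets, a signal filter (over 50 on at least 7 arrays), no block, P12-ICHIKAWA and TALL-1 as 1 line, a trended prior and leaving out each line. Promoter windows came from RefSeq, and a gene counted if any of its windows held the motif.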

Additional observations from a re-analysis of the deposited data

Results flagged for a closer look

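In 5 sets of 7 lines the value of 1 line lay far from those of the other 6, by Dixon's criterion. The change of HEXA was 0.51 in Molt-4 and 0.16 to 0.30 elsewhere. The change of ATP6V0E1 was 0.13 in HPB-ALL and -0.14 to -0.038 elsewhere. With vehicle, ASAH1 was at 6.43 in ALL-SIL and 8.61 to 9.31 elsewhere, LIPA was at 8.41 in HPB-ALL and 8.99 to 9.15 elsewhere, and ATP6V0D1 was at 7.35 in HPB-ALL and 8.19 to 8.78 elsewhere. The changes and vehicle levels of 42 genes each and 5 sets of class medians were examined, and chance alone gives such a gap in about 1 of 20 sets.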

How the results depend on the processing

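No gene that was called changed direction under any alternative. The sign turned for 5 genes that were not called, and none was called with the other sign. ATP6V0A1 (0.0040) gave -0.00372 with an offset of 4, -0.034 with quantile normalization, -0.049 with centring, -0.021 with all probe sets averaged and, without HPB-ALL, Jurkat, Molt-4 or P12-ICHIKAWA, -0.00422, -0.040, -0.00897 and -0.051. CTSZ (-0.020) gave 0.082 with all probe sets averaged and 0.026, 0.034 and 0.016 without Jurkat, ALL-SIL or TALL-1. LAMP2 (0.052) gave -0.000824 with centring and -0.15 with probe sets averaged, GUSB (0.041) gave -0.013 and -0.00461, and ATP6V0E1 (-0.051) gave 0.0015 with probe sets averaged. Of the 16 higher genes 11 were called whichever line was left out, and 9 also under all 8 other alternatives that kept the block (MCOLN1 was removed by the signal filter); both lower genes were called whichever line was left out. Leaving out each line in turn gave 11 (without TALL-1) to 16 higher and 2 to 3 lower genes, 6 (without TALL-1) to 10 higher and 1 to 2 lower hydrolases and cofactors, 4 higher membrane genes, 0 to 1 higher and 1 lower V-ATPase subunit, 12 to 15 higher and 2 to 4 lower genes of the second list, and 36 to 39 genes that differed between lines. The lowest and highest medians were then 0.13 and 0.16 for all members, 0.17 and 0.24 for hydrolases, 0.27 and 0.41 for membrane genes, and -0.080 and -0.040 for V-ATPase subunits. With an offset of 4, the second list had 9 higher and 2 lower genes, and with an offset of 64 the hydrolases had 2 lower and the changes of CTSS, GAA, CTNS and PLA2G15 were 0.12, 0.17, 0.39 and 0.16. With each array centred on its median, 4 members were lower, 2 of them hydrolases, and the median of all members was 0.097. With the mean of all probe sets, the second list had 2 lower genes and the membrane median was 0.14. With the signal filter (over 50 on at least 7 arrays), 4 members were lower, 2 of them hydrolases. With P12-ICHIKAWA and TALL-1 as 1 line, the second list had 3 lower genes, without LAMTOR5 and LAPTM4B (adjusted p = 0.0712 and 0.0881 in limma). With the offset of 4, with centring, with these lines as 1 and in 6 of the 7 fits without a line, 0 V-ATPase subunits were higher in limma, against 1 to 2 at an unadjusted p under 0.05. Without the cell line as a block, that is without the pairing, limma called 0 genes in each direction in every list, against 5 higher and 0 lower members and 2 higher and 1 lower genes of the second list at an unadjusted p under 0.05; the differences between lines then stay in the error. The cause of the other shifts was not tested. Dim signals limit MITF, CTSL, CTSZ and SMPD1, which had no signal over 50. They also limit TFEB, CTSH and CTSS, with a signal over 50 in 4 arrays each, and ATP6V0A1, with 2.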
